A study of Mus musculus with 8 samples.

Results

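The genes of the heat shock and chaperone machinery were followed in mouse embryonic stem cells (ESCs) depleted of Tip60, Hdac6 or both. Members were all array probes whose gene name matched the naming pattern of the Hsp families (Hspa, Hspb, Hspd, Hspe, Hsph and Hsp90), the Hsp40 families (Dnaja, Dnajb and Dnajc), the TRiC subunits Cct2 to Cct8, the Bag co-chaperones Bag1 to Bag6 and the heat shock factors Hsf1 to Hsf4. The pattern found 132 probes of 91 genes among the 30397 gene names on the array. Of these, 77 genes had a probe above background and floor on at least 2 arrays and were tested, among 18059 tested genes in all. The other 14 were dim throughout and were not tested (Cct8l1, Dnajb3, Dnajb7, Dnajb8, Dnajb13, Dnajc5b, Dnajc5g, Dnajc27, Dnajc28, Hspa1l, Hspa12a, Hspa12b, Hspb3 and Hspb7). Hsf2bp, a protein that binds Hsf2 and is no heat shock factor itself, entered by its name only. No probe was named Hspa1b.

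E14 ESCs, a line from the early mouse embryo, were grown on gelatin without feeder cells in medium with serum and LIF. All 4 groups carried a lentiviral short hairpin RNA for 72 hours before harvest, and each had 2 biological replicates, lettered A and B. Control KD cells received a hairpin against GFP, Tip60 KD cells one against Tip60 (the acetyltransferase encoded by Kat5), Hdac6 KD cells one against Hdac6, and double KD cells were depleted of both. KD stands for knockdown, and each target was represented by a single hairpin, so that effects of the hairpin and of the depletion cannot be told apart.

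Chaperones bind unfolded proteins and let them fold, refold or be degraded. Hsp70 proteins cycle between ATP and ADP states, with Hsp40 (Dnaj) proteins delivering clients and stimulating ATP hydrolysis, and Bag and Hsp110 proteins exchanging the nucleotide. Hsp90 matures kinases and steroid receptors, TRiC folds actin and tubulin in its chamber, and Hsp60 with Hsp10 forms the folding chamber for proteins of the mitochondrial matrix. Heat shock factors, above all Hsf1, switch on many of these genes under stress. Hdac6 is a deacetylase known to act on tubulin and on Hsp90 and to bind ubiquitinated proteins. For this reason its depletion is set beside chaperone mRNA here. Hdac6 is mainly cytoplasmic in differentiated cells, while the study that made these arrays reported it as largely nuclear in ESCs and bound to the Tip60 complex.

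Each signal below is the log2 of a probe's fluorescence divided by the 75th percentile of its array, and each change is a difference of group means in log2 units with its standard error (SE), from 2 arrays a group. A gene is said to rise or fall where limma gave a Benjamini-Hochberg adjusted p under 0.1 over all tested genes. The targeted genes followed the labels. Kat5 signal was 1.25 and 1.30 on the control KD arrays, -0.10 and -0.08 upon Tip60 KD, 1.43 and 1.44 upon Hdac6 KD, and -0.19 and 0.12 upon double KD, so that 38.7% and 40.2% of the control level was left in the groups depleted of Tip60. Hdac6 signal was 2.13 and 2.10 in control KD, -0.37 and -0.40 upon Hdac6 KD (17.7% of control), 0.21 and 0.26 upon double KD (27.2%), and 1.65 and 1.68 upon Tip60 KD. Hdac6 thus also fell upon Tip60 KD alone, by 0.45 ± 0.07 (limma adjusted p = 0.00502).

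All 10 ESC markers were measured on every array, with summed scaled signal between 306.2 and 336.4. Of 7 fibroblast and feeder markers, Col1a2, Dcn and Postn did not pass the filter, and the summed signal of the other 4 was 2.31 to 2.62 in control KD, 2.81 to 3.27 upon Tip60 KD, 2.00 to 2.12 upon Hdac6 KD and 2.90 to 3.19 upon double KD. The part of these few transcripts in the results below was not tested. Between 21896 and 40609 of 43020 spots, and 97 to 130 of the 132 member probes, were well above background, fewest on control KD array B, which also had the most background subtracted (a median of 114.3, against 37.2 to 89.0 on the other arrays). Each slide held the 4 arrays of 1 replicate letter, and the position on the slide was fixed for each group, so position and group cannot be told apart. In RNA from whole cultures, fewer cells of a kind and less RNA per cell cannot be told apart either.

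The recognition sequences of 2 stress pathways were searched in RefSeq promoters (build GRCm38.p6, 250 bases before to 50 after each start), which were given for 73 of the 91 genes. The heat shock element, bound by heat shock factors, was taken as 3 alternating units on either strand (GAANNTTCNNGAA or TTCNNGAANNTTC). It occurred in promoters of 4 members (5.48% of 73) and of 0.662% of all 27025 genes in the table. The ER stress element, the site of the unfolded protein response (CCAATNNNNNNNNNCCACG, either strand), occurred in 3 members (4.11%) and in 0.137% of all genes. The 4 members with a heat shock element and the one whose ER stress element belongs to the best known marker of ER stress are shown with the element in capitals, read along the gene's own strand, because they let the changes of these genes be read beside their sequence.
Hsph1, chr5:149636280-149636308, minus strand: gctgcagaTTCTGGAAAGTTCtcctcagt
Hspd1, chr1:55088039-55088096, minus strand: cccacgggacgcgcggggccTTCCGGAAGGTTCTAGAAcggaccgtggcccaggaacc
Hspe1, chr1:55088039-55088096, plus strand: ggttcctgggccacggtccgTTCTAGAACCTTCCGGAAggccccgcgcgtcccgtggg
Dnajb6, chr5:29735832-29735884, plus strand: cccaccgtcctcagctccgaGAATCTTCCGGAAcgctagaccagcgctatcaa
Hspa5, chr2:34772005-34772063, plus strand: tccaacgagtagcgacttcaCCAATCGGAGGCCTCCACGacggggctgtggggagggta

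Hspd1 and Hspe1, which encode the mitochondrial Hsp60 and its lid Hsp10, lie head to head, and their lines above are one stretch of DNA read from both strands, with 2 overlapping matches. It lay 127 to 144 bases before the start of Hspd1 and 72 to 89 bases before that of Hspe1. In Hsph1 the element lay past the annotated start, 15 to 27 bases after the nearer of 2 starts. The other 2 ER stress elements were in Hsp90b1 and Dnajc3. A match is a string of letters in this window and no measurement of binding.

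Upon Tip60 KD, 27 of 77 members changed (35.1%), 14 up and 13 down, against 40.4% of all tested genes. Upon Hdac6 KD, 26 members changed (33.8%), 12 up and 14 down, against 30.0% of all genes. Upon double KD, 27 members changed (35.1%), 13 up and 14 down, against 33.7%. These shares were near the background of all genes, and the median change of the members (0.07, -0.03 and 0.01) was near that of all genes (0.05, 0.02 and 0.05). The changes were mostly small. By the brightest kept probe, Dnajc16 and Dnajb12 upon Tip60 KD and Hsph1 upon Hdac6 KD reached 2-fold among the called members, and none did upon double KD. The 3 comparisons share the control KD arrays and are given side by side.

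**Figure D1:**
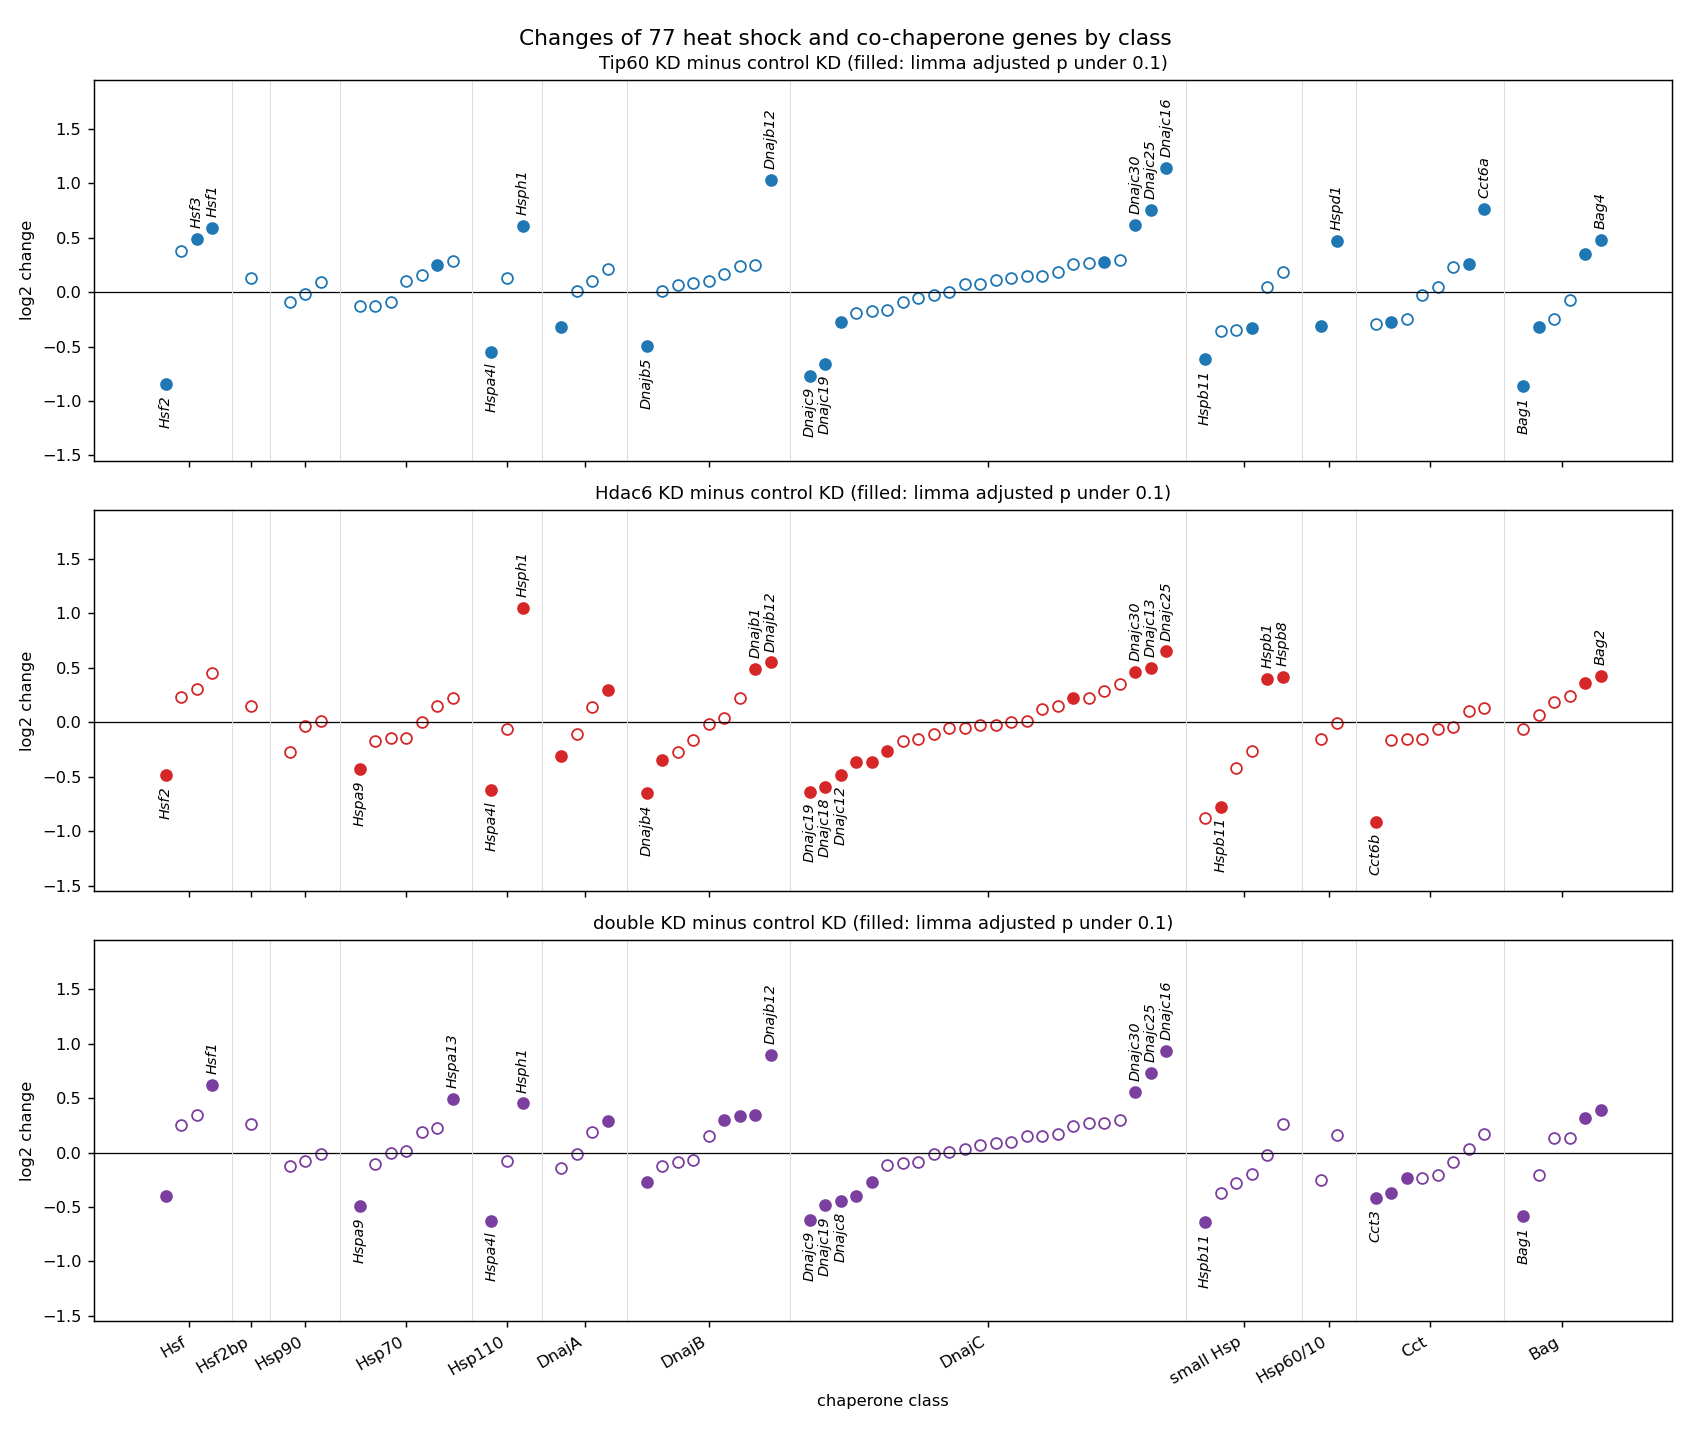
Log2 change of each of the 77 tested genes against control KD, with 1 panel a knockdown and the genes ordered by change within each chaperone class. Filled points passed the limma threshold, and called genes with a change of at least 0.4 in size are named. Called genes lie on both sides of 0 in most classes, while the 3 Hsp90 genes are open in all panels.

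The number of called members leaned on single arrays, and so did the number of called genes among all tested genes. Upon Hdac6 KD it was 8 when Hdac6 KD replicate A was left out, 9 for Hdac6 KD replicate B, 9 for control KD replicate B and 16 for control KD replicate A. Upon Tip60 KD the lowest count was 18, on leaving out either control KD array. Upon double KD it was 14 and 13 when the control KD replicates A and B were dropped in turn, and 16 and 15 for those of double KD. In every such fit, 16 of the 27 calls upon Tip60 KD, 7 of the 26 upon Hdac6 KD and 9 of the 27 upon double KD held, and the genes described below are marked accordingly. These marks cover members only. Calls of genes outside the naming pattern carry no mark, and its absence there does not mean that a call held. With the replicate letter (and so the slide) as a block, 50, 48 and 44 members were called, against 60.3%, 52.9% and 55.4% of all genes, and the calls of the fit with no block were all among them. Each called member changed in the same direction on both slides. Scaling by the array median in place of the 75th percentile moved the median change of all genes by -0.15, -0.10 and -0.20 and left 2, 0 and 1 member calls, while 11, 13 and 12 members kept a limma p below 0.05 before adjustment. Over all 18059 tested genes it left 1485, 169 and 563 calls, where the main scaling gave 7293, 5412 and 6079. It turned the direction of none of the called members.

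The heat shock factors moved apart. Hsf1, the main activator of the heat shock response, had a signal of 0.59 and 0.51 in control KD, 1.27 and 1.01 upon Tip60 KD, 0.87 and 0.70 upon Hdac6 KD, and 1.22 and 1.12 upon double KD. All arrays depleted of Tip60 were above the control and Hdac6 KD arrays. Hsf1 rose upon Tip60 KD by 0.59 ± 0.12 (limma adjusted p = 0.0128) and upon double KD by 0.62 ± 0.12 (limma adjusted p = 0.0148), and both calls held without any 1 array. Its change upon Hdac6 KD was 0.24 ± 0.12 (limma adjusted p = 0.222, and 0.031 with the replicate block).

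Hsf2, a factor that pairs with Hsf1 and acts in development, went down. Its signal was -0.65 and -0.77 in control KD, -1.52 and -1.58 upon Tip60 KD, -1.13 and -1.26 upon Hdac6 KD, and -1.05 and -1.17 upon double KD. No array of a knockdown reached the control level, and the Tip60 KD arrays were the lowest. Hsf2 fell by 0.84 ± 0.09 upon Tip60 KD (55.7% of control, limma adjusted p = 0.00186), by 0.49 ± 0.09 upon Hdac6 KD (limma adjusted p = 0.0163) and by 0.40 ± 0.09 upon double KD (limma adjusted p = 0.0261). The double KD call was lost on leaving out replicate A of control KD or replicate B of double KD (highest adjusted p 0.12), and quantile normalisation ended the Hdac6 and double KD calls.

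The remaining factors were dim. Hsf3 rose upon Tip60 KD by 0.49 ± 0.18 (limma adjusted p = 0.0919), a call that was lost in 6 of the 8 fits without 1 array (highest adjusted p 0.30), and its changes upon Hdac6 KD and double KD were 0.45 and 0.25, neither called without the block (adjusted p = 0.0689 upon Hdac6 KD with it, limma). Hsf4 replicates differed widely (-2.65 and -1.82 in control KD), and its changes of 0.30 to 0.37 were not called without the block. Hsf2bp changes were 0.13 to 0.26, none called without the block.

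No Hsp90 gene was called by limma in any knockdown, as far as 2 arrays a group can show. Hsp90aa1, the inducible cytosolic form, had a signal of 6.97 and 7.04 in control KD, 6.82 and 7.01 upon Tip60 KD, 6.93 and 7.02 upon Hdac6 KD, and 6.85 and 6.99 upon double KD. Hsp90ab1, the constitutive form, had 7.19 and 7.24, 7.04 and 7.35, 7.08 and 7.36, and 7.12 and 7.28 in the same order. The groups overlapped for both genes. Upon Hdac6 KD, Hsp90aa1 changed by -0.03 ± 0.10 (limma adjusted p = 0.885) and Hsp90ab1 by 0.01 ± 0.15 (limma adjusted p = 0.997). Against control KD, 0 of the 3 had a limma p below 0.05 before adjustment in any knockdown. Quantile normalisation gave Hsp90aa1 a change of 0.20 upon Hdac6 KD with an adjusted p of 0.0933, so its direction depends on the scaling.

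Hsp90b1, the Hsp90 of the endoplasmic reticulum (ER), had a signal of 4.84 and 4.67 in control KD and of 4.64 and 4.32 upon Hdac6 KD, the lowest of the 4 groups. Its change upon Hdac6 KD was -0.28 ± 0.14 (limma adjusted p = 0.242), and with the replicate block it was called (adjusted p = 0.0218). It was 0.10 upon Tip60 KD and -0.12 upon double KD.

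Of 19 co-chaperones of Hsp90 outside the naming pattern, 11 changed upon Tip60 KD (57.9%, 6 up and 5 down, against 40.4% of all genes), 2 upon Hdac6 KD (10.5%, against 30.0%) and 1 upon double KD (5.26%, against 33.7%). Fkbp4, an immunophilin of steroid receptor complexes, rose by 0.64 ± 0.14 upon Tip60 KD and by 0.53 ± 0.14 upon Hdac6 KD, and its change upon double KD was 0.32 ± 0.14 (limma adjusted p = 0.0207, 0.0508 and 0.172). Stub1, the ubiquitin ligase CHIP, rose by 0.49 upon Tip60 KD, while Fkbp5 fell by 0.49. Ptges3, the Hsp90 cofactor p23, fell by 0.40, 0.33 and 0.30 in the Tip60, Hdac6 and double KD.

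Of 7 tested Hsp70 genes, 1 was called upon Tip60 KD (14.3%, against 40.4% of all genes), 1 upon Hdac6 KD (14.3%, against 30.0%) and 2 upon double KD (28.6%, against 33.7%). With the replicate block 4, 3 and 4 were, against 60.3%, 52.9% and 55.4% of all genes. Hspa8, the constitutive cytosolic Hsc70, had a signal of 7.08 and 7.18 in control KD and between 6.97 and 7.05 on all knockdown arrays. Its changes were -0.13, -0.15 and -0.11, none called without the block, and with the block limma called those upon Tip60 KD (adjusted p = 0.0861) and Hdac6 KD (adjusted p = 0.0673). Another of its 3 kept probes rose upon Tip60 KD by 0.56 (limma adjusted p = 0.00915), so the probes of Hspa8 disagree there, and the change upon Tip60 KD was 0.18 as the mean of its probes and 0.11 with quantile normalisation.

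Hspa9, the mitochondrial Hsp70 (mortalin), fell upon loss of Hdac6. Its signal was 4.44 and 4.67 in control KD, 4.33 and 4.53 upon Tip60 KD, 4.06 and 4.19 upon Hdac6 KD, and 4.03 and 4.09 upon double KD, and the arrays depleted of Hdac6 did not overlap the others. The fall was 0.43 ± 0.12 upon Hdac6 KD (limma adjusted p = 0.0508) and 0.49 ± 0.12 upon double KD (limma adjusted p = 0.03), against a change of -0.12 ± 0.12 upon Tip60 KD. The Hdac6 KD call was lost without control KD array B or either Hdac6 KD array (highest adjusted p 0.193), the double KD call on leaving out replicate B of control KD or replicate A of double KD (0.126).

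Hspa5, the ER Hsp70 known as BiP, differed between the single knockdowns. Its signal was 4.48 and 4.39 in control KD, 4.78 and 4.67 upon Tip60 KD, 4.41 and 4.17 upon Hdac6 KD, and 4.76 and 4.49 upon double KD. Without the block no change against control passed (0.29 ± 0.13 upon Tip60 KD, -0.15 ± 0.13 upon Hdac6 KD and 0.19 ± 0.13 upon double KD), and with it limma called the rises upon Tip60 KD and double KD (adjusted p = 0.0174 and 0.0752). The direct difference of 0.43 ± 0.13 between Tip60 KD and Hdac6 KD passed (limma adjusted p = 0.081), and was lost without any 1 control, Tip60 or Hdac6 KD array (highest adjusted p 0.316). Hspa13, a microsomal Hsp70, rose upon double KD by 0.49 ± 0.15 (limma adjusted p = 0.0652), a call lost without any 1 control or double KD array. It rests on 1 of 2 kept probes, since the other, dim at -2.28 and -2.41 in control KD, changed by 0.00.

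Hspa1a, the classical heat-inducible Hsp70, was at the floor of the scale (-2.78) on both arrays of control KD, Hdac6 KD and double KD. The Tip60 KD arrays alone lay above it, at -2.64 and -2.43. The limma call for the change of 0.25 (adjusted p = 0.0842) rests on the floor and was lost in 7 of the 8 fits without 1 array (highest adjusted p 0.285) and where values at the floor were set to missing. In control KD the probe was well above background on 1 of 2 arrays.

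The clearest member was Hsph1, the Hsp110 protein Hsp105, a nucleotide exchange factor of Hsp70 and a heat shock gene. Its signal was 1.43 and 1.34 in control KD, 1.98 and 1.99 upon Tip60 KD, 2.44 and 2.43 upon Hdac6 KD, and 1.86 and 1.81 upon double KD. The 4 groups did not overlap, and Hdac6 KD alone was highest. Hsph1 rose by 1.05 ± 0.07 upon Hdac6 KD (2.07-fold, limma adjusted p = 0.00166), by 0.60 ± 0.07 upon Tip60 KD (1.52-fold, limma adjusted p = 0.00239) and by 0.45 ± 0.07 upon double KD (1.37-fold, limma adjusted p = 0.00851). These calls held without any 1 array. Its second probe rose by 1.14, 0.80 and 0.49 in the same order.

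The other Hsp110 genes did not follow it. Hspa4l, the family member known from testis, had a signal of -2.00 and -2.04 in control KD and between -2.78 and -2.40 on all knockdown arrays, near the floor. It fell by 0.55, 0.62 and 0.63 upon Tip60, Hdac6 and double KD (SE 0.15, limma adjusted p = 0.0379, 0.0353 and 0.0314), and each call was lost on leaving out either control KD array or replicate B of that knockdown (highest adjusted p 0.149, 0.168 and 0.137) and under quantile normalisation. Hspa4 was not called by its brightest probe (0.13, -0.06 and -0.08), while another of its 3 kept probes rose upon Hdac6 KD by 0.84 (limma adjusted p = 0.00405) and upon Tip60 KD by 0.47 (limma adjusted p = 0.0129). Upon double KD the changes of the 3 probes ranged from -0.11 to 0.26, with 1 of them called.

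**Figure D2:**
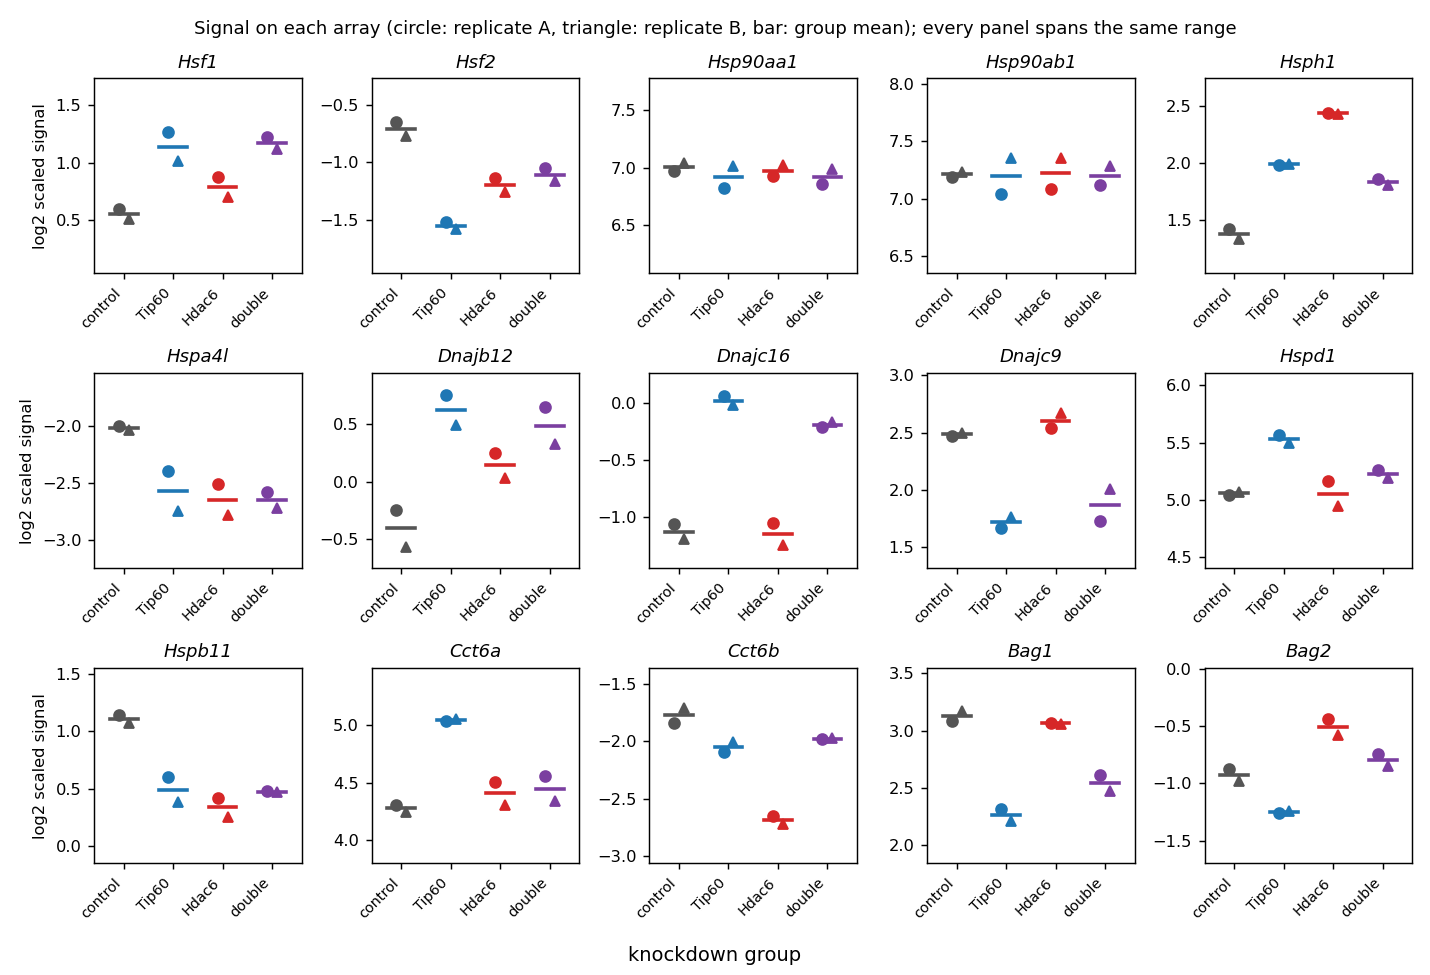
Log2 scaled signal of 15 members on each of the 8 arrays, with 1 panel a gene and every panel spanning the same range of log2 units. Circles are replicate A, triangles replicate B and bars group means. Hsph1 is highest upon Hdac6 KD, Cct6a upon Tip60 KD, and Cct6b lowest upon Hdac6 KD, while the groups of Hsp90aa1 and Hsp90ab1 overlap.

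Hsp40 proteins form the largest class. Among 4 tested Dnaja, 9 Dnajb and 24 Dnajc genes, 1, 2 and 7 were called upon Tip60 KD, 2, 4 and 10 upon Hdac6 KD, and 1, 5 and 8 upon double KD. Dnajb shares were 22.2%, 44.4% and 55.6% and Dnajc shares 29.2%, 41.7% and 33.3%, against 40.4%, 30.0% and 33.7% of all genes. For the 4 Dnaja genes only the counts are given. Dnajb1, a heat-inducible Hsp40, had a signal of 1.47 and 1.26 in control KD, 1.61 and 1.46 upon Tip60 KD, 1.88 and 1.83 upon Hdac6 KD, and 1.73 and 1.61 upon double KD. Dnajb1 rose by 0.49 ± 0.11 upon Hdac6 KD (limma adjusted p = 0.0258) and by 0.30 ± 0.11 upon double KD (limma adjusted p = 0.0933), and its change upon Tip60 KD was 0.17 ± 0.11 (adjusted p = 0.0602 with the block). The Hdac6 KD call was lost without control KD array B or either Hdac6 KD array (highest adjusted p 0.115), the double KD call in 7 of 8 such fits (0.316).

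Dnaja1, a farnesylated partner of Hsc70, rose upon Hdac6 KD by 0.30 ± 0.07 (limma adjusted p = 0.0398), from 4.29 and 4.19 in control KD to 4.54 and 4.54, and this call too was lost without control KD array B or either Hdac6 KD array (highest adjusted p 0.158). Its changes were 0.11 upon Tip60 KD and 0.19 upon double KD, the latter called by limma with the block (adjusted p = 0.0405). Dnaja3, a mitochondrial Hsp40, fell by 0.32 upon Tip60 KD and 0.31 upon Hdac6 KD (limma adjusted p = 0.0184 and 0.0314), the latter lost on leaving out control KD replicate A or either Hdac6 KD array (0.149). Dnaja4 rose by 0.29 upon double KD (limma adjusted p = 0.0828), lost in 7 of the 8 fits (0.307). Dnajb4, another cytosolic Hsp40, went the other way upon Hdac6 KD. Its signal was -0.72 and -0.73 in control KD, -0.52 and -0.72 upon Tip60 KD, -1.31 and -1.44 upon Hdac6 KD, and -0.70 and -0.89 upon double KD. The fall of 0.65 ± 0.11 (limma adjusted p = 0.0121) held without any 1 array, and the changes upon Tip60 KD and double KD were 0.10 and -0.07.

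Dnajb6, an Hsp40 that suppresses protein aggregation and carries a heat shock element above, had a signal of 2.30 and 2.39 in control KD, 2.46 and 2.72 upon Tip60 KD, 2.01 and 2.00 upon Hdac6 KD, and 2.60 and 2.76 upon double KD. It fell upon Hdac6 KD by 0.34 ± 0.11 (limma adjusted p = 0.0872) and rose upon double KD by 0.33 ± 0.11 (limma adjusted p = 0.0848). Both calls were lost on leaving out any 1 control, Hdac6 or double KD array (highest adjusted p 0.275 and 0.299). The 4 kept probes of Dnajb6 all had positive changes upon double KD, but upon Hdac6 KD their changes ranged from -0.34 to 0.21, with 1 of the 4 called. Upon Tip60 KD all 4 had positive changes, from 0.25 to 0.75, and limma called 2 of them. The change of 0.25 there was that of the brightest probe and was not called without the block.

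Dnajc16 and Dnajb12, both J-proteins of the ER, had the largest rises among members upon Tip60 KD by the brightest kept probe of each gene. The probes of Dnajc10 disagreed, with changes of -0.19 for its brightest and 1.11 for its other kept probe upon Tip60 KD. The other probe gave 0.54 and 0.51 upon Hdac6 and double KD, and limma called 1 of the 2 probes in each knockdown. Dnajc5 changes upon Tip60 KD ranged from -0.16 to 0.65 over 3 kept probes, 1 of them called. Dnajc16 had a signal of -1.06 and -1.19 in control KD, 0.06 and -0.02 upon Tip60 KD, -1.05 and -1.24 upon Hdac6 KD, and -0.21 and -0.17 upon double KD. The control and Hdac6 KD arrays overlapped, well below the arrays depleted of Tip60. Dnajc16 rose by 1.14 ± 0.10 upon Tip60 KD (2.21-fold, limma adjusted p = 0.0011) and by 0.93 ± 0.10 upon double KD (limma adjusted p = 0.00294), against -0.02 ± 0.10 upon Hdac6 KD. Dnajb12, which works with Hsc70 in ER-associated degradation, had a signal of -0.25 and -0.57 in control KD, 0.76 and 0.49 upon Tip60 KD, 0.25 and 0.03 upon Hdac6 KD, and 0.65 and 0.32 upon double KD. It rose by 1.03 ± 0.18 upon Tip60 KD (2.04-fold, limma adjusted p = 0.00833), by 0.90 ± 0.18 upon double KD (limma adjusted p = 0.0178) and by 0.55 ± 0.18 upon Hdac6 KD (limma adjusted p = 0.0827). The calls of both genes upon Tip60 KD and double KD held without any 1 array, while that of Dnajb12 upon Hdac6 KD was lost in 6 of 8 such fits (highest adjusted p 0.298).

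Dnajc9, a co-chaperone that handles histones H3 and H4, fell where Tip60 was depleted. Its signal was 2.47 and 2.50 in control KD, 1.67 and 1.77 upon Tip60 KD, 2.54 and 2.67 upon Hdac6 KD, and 1.73 and 2.01 upon double KD. The fall was 0.77 ± 0.11 upon Tip60 KD (58.8% of control, limma adjusted p = 0.00501) and 0.62 ± 0.11 upon double KD (limma adjusted p = 0.0142), both held without any 1 array, and the change upon Hdac6 KD was 0.12 ± 0.11. Dnajb5 fell upon Tip60 KD by 0.50 ± 0.08 (limma adjusted p = 0.00512) and upon double KD by 0.27 ± 0.08, with -0.01 upon Hdac6 KD. The double KD call was lost without either control KD array or double KD array A (highest adjusted p 0.167).

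Other J-proteins were called in one direction in all knockdowns. Dnajc25 rose by 0.75, 0.65 and 0.73 upon Tip60, Hdac6 and double KD (SE 0.14, limma adjusted p = 0.0103, 0.0255 and 0.0156), from -1.59 and -1.84 in control KD to between -1.18 and -0.84 on the knockdown arrays. Dnajc30, a mitochondrial J-protein, rose by 0.62, 0.46 and 0.56. Dnajc19, a subunit of the motor that pulls proteins into mitochondria, fell by 0.66, 0.64 and 0.49 (SE 0.12, limma adjusted p = 0.00902, 0.016 and 0.0316). For Dnajc25 and Dnajc19 this rests on 1 probe, since the other kept probe of Dnajc25 changed by 0.00, 0.02 and 0.20 and that of Dnajc19 by 0.02, 0.22 and -0.09, none called. That probe of Dnajc25 was at the floor on 6 of the 8 arrays, where a change cannot be seen. That of Dnajc19 was dim, between -2.78 and -1.72. Dnajc18 fell by 0.27, 0.59 and 0.40. The Hdac6 KD call of Dnajc25 was lost on leaving out control KD replicate B or Hdac6 KD replicate A (highest adjusted p 0.118), and that of Dnajc30 for control KD replicate A or either Hdac6 KD array (0.27). The double KD calls of Dnajc30 and Dnajc19 were lost for control KD replicate A or double KD replicate B (0.15 and 0.137), that of Dnajc18 for control KD replicate B or double KD replicate A (0.123), and the Tip60 KD call of Dnajc18 in 5 of the 8 fits (0.248).

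Some J-proteins were called in fewer comparisons. Upon Hdac6 KD, Dnajc12 fell by 0.48 ± 0.11 (limma adjusted p = 0.0284) and Dnajc13, an endosomal protein, rose by 0.50 ± 0.16 (limma adjusted p = 0.0789), and these calls were lost in 4 and 5 of the 8 fits without 1 array (highest adjusted p 0.122 and 0.286). Dnajc4 fell by 0.36 and Dnajc22 by 0.27 upon Hdac6 KD (limma adjusted p = 0.0437 and 0.0465), both lost on leaving out any 1 control or Hdac6 KD array (0.186 and 0.169). Dnajc2, which sits on the ribosome, rose upon Tip60 KD by 0.28 ± 0.10 and fell upon double KD by 0.27 ± 0.10, calls lost in 5 and 6 of the 8 fits (highest adjusted p 0.271 and 0.286). Dnajc8, a spliceosome protein, fell by 0.36 upon Hdac6 KD and by 0.44 upon double KD, the first lost in 6 of the 8 fits (highest adjusted p 0.281), the second on leaving out either control KD array or double KD replicate A (0.148).

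Among 6 tested small heat shock proteins, 2 fell upon Tip60 KD, 1 fell and 2 rose upon Hdac6 KD, and 1 fell upon double KD. The called shares were 33.3% upon Tip60 KD and 16.7% upon double KD, against 40.4% and 33.7% of all genes. Upon Hdac6 KD 3 of the 6 were called, against 30.0% of all genes. Hspb1 (Hsp27 family), which binds unfolding proteins under stress, had a signal of 6.04 and 5.82 in control KD, 6.21 and 6.02 upon Tip60 KD, 6.35 and 6.31 upon Hdac6 KD, and 6.27 and 6.12 upon double KD. It rose upon Hdac6 KD by 0.40 ± 0.11 (limma adjusted p = 0.0583), a call lost without control KD array B or either Hdac6 KD array (highest adjusted p 0.219). Upon Tip60 KD and double KD its changes were 0.19 and 0.26, called by limma with the replicate block only (adjusted p = 0.0553 and 0.0207).

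Hspb8, which delivers aggregates to autophagy together with Bag3, was called in opposite directions. Its signal was -1.10 and -1.26 in control KD, -1.39 and -1.63 upon Tip60 KD, -0.68 and -0.85 upon Hdac6 KD, and -1.31 and -1.43 upon double KD. The single knockdowns lay on either side of control KD, with no overlap. Hspb8 fell by 0.33 ± 0.12 upon Tip60 KD (limma adjusted p = 0.0939) and rose by 0.42 ± 0.12 upon Hdac6 KD (limma adjusted p = 0.0636). The first call was lost in 7 of the 8 fits without 1 array (highest adjusted p 0.353) and the second on leaving out any 1 control or Hdac6 KD array (0.236), but the direct difference between the 2 knockdowns of -0.75 ± 0.12 (limma adjusted p = 0.0139) was not.

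Hspb11, an intraflagellar transport protein (Ift25) named with the small Hsp genes, fell in all 3 knockdowns, by 0.62 upon Tip60 KD, 0.77 upon Hdac6 KD and 0.63 upon double KD (SE 0.10, limma adjusted p = 0.00758, 0.00683 and 0.00984), and these calls held without any 1 array. Its signal was 1.14 and 1.07 in control KD and between 0.26 and 0.60 on all knockdown arrays. By the brightest kept probe, Hspb2 varied most between replicates of any member, with -2.47 and -1.10 in control KD. Its change of -0.88 ± 0.42 upon Hdac6 KD was not called without the block.

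The head-to-head pair Hspd1 and Hspe1 parted upon Tip60 KD. Hspd1 (Hsp60) had a signal of 5.05 and 5.07 in control KD, 5.57 and 5.50 upon Tip60 KD, 5.16 and 4.94 upon Hdac6 KD, and 5.26 and 5.19 upon double KD. It rose upon Tip60 KD by 0.47 ± 0.10 (limma adjusted p = 0.014), a call that held without any 1 array, against -0.01 upon Hdac6 KD and 0.16 upon double KD. Hspe1 (Hsp10) had 5.89 and 5.81, 5.66 and 5.42, 5.75 and 5.65, and 5.67 and 5.53 in that order. It fell upon Tip60 KD by 0.31 ± 0.11 (limma adjusted p = 0.0866), a call lost in 7 of 8 fits without 1 array (highest adjusted p 0.322) and in 7 other settings, and its other 2 kept probes gave -0.12 and -0.37. Upon double KD its change of -0.25 was called by limma with the block only (adjusted p = 0.0211). The difference between the changes of Hspd1 and Hspe1 was not tested.

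Of 15 mitochondrial chaperone and protease genes, 8 of them members, 10 changed upon Tip60 KD (66.7%, 5 up and 5 down), 6 upon Hdac6 KD (40.0%) and 5 upon double KD (33.3%), against 40.4%, 30.0% and 33.7% of all genes. Outside the naming pattern, Hscb, the co-chaperone of iron-sulphur cluster transfer, fell by 1.27 ± 0.07 upon Tip60 KD and by 0.90 ± 0.07 in the other knockdowns (limma adjusted p = 0.000574, 0.00199 and 0.0016). The nucleotide exchange factors of Hspa9 went apart upon Tip60 KD, where Grpel1 rose by 0.35 and Grpel2 fell by 0.52. Trap1, the mitochondrial Hsp90, rose by 0.46 upon Tip60 KD (limma adjusted p = 0.0435). Of 11 Hsp70 cofactors outside the pattern, 9 changed upon Tip60 KD (81.8%), 5 upon Hdac6 KD (45.5%) and 7 upon double KD (63.6%), beside the same shares of all genes. Sil1, an exchange factor of Hspa5, fell by 0.71, 0.94 and 0.55, while Hyou1, another one, rose by 0.42, 0.45 and 0.82, and Hspbp1 rose by 0.64, 0.36 and 0.41.

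TRiC is built from several kinds of subunit, each from its own gene, and their calls differed in direction. Of 8 tested Cct genes, 2 rose and 1 fell upon Tip60 KD, 1 fell upon Hdac6 KD and 3 fell upon double KD. The called shares were 37.5%, 12.5% and 37.5%, against 40.4%, 30.0% and 33.7% of all genes. Cct6a, the zeta subunit of most tissues, had a signal of 4.31 and 4.25 in control KD, 5.04 and 5.05 upon Tip60 KD, 4.51 and 4.31 upon Hdac6 KD, and 4.56 and 4.34 upon double KD. The Tip60 KD arrays stood above all others. Cct6a rose upon Tip60 KD by 0.77 ± 0.11 (limma adjusted p = 0.00438), a call that held without any 1 array, against 0.13 ± 0.11 upon Hdac6 KD and 0.17 ± 0.11 upon double KD.

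Cct6b, the testis form of that subunit, was dim and lowest upon Hdac6 KD. Its signal was -1.84 and -1.71 in control KD, -2.09 and -2.00 upon Tip60 KD, -2.65 and -2.72 upon Hdac6 KD, and -1.98 and -1.97 upon double KD. It fell by 0.91 ± 0.08 upon Hdac6 KD (53.1% of control, limma adjusted p = 0.00268), a call that held without any 1 array, and by 0.27 ± 0.08 upon Tip60 KD (limma adjusted p = 0.0481, lost without control KD array B or Tip60 KD array A, highest 0.186).

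Upon double KD, Cct3 fell by 0.42 ± 0.08 (limma adjusted p = 0.0143), from 4.47 and 4.38 to 4.06 and 3.95, and this call held without any 1 array. Cct2 fell by 0.37 ± 0.13 and Cct4 by 0.24 ± 0.08 (limma adjusted p = 0.0954 and 0.0745), both calls being lost in 7 of 8 such fits (highest adjusted p 0.351 and 0.253), and quantile normalisation turned the direction of Cct4, to 0.017. Cct7 rose upon Tip60 KD by 0.26 ± 0.07 (limma adjusted p = 0.0359), a call lost without control KD array A or either Tip60 KD array (highest adjusted p 0.131). Cct5 changes were -0.29, -0.15 and -0.24 and Cct8 changes 0.23, 0.10 and -0.09, not called without the block. With the block 6, 4 and 5 of the 8 subunits were called, against 60.3%, 52.9% and 55.4% of all genes.

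**Figure D3:**
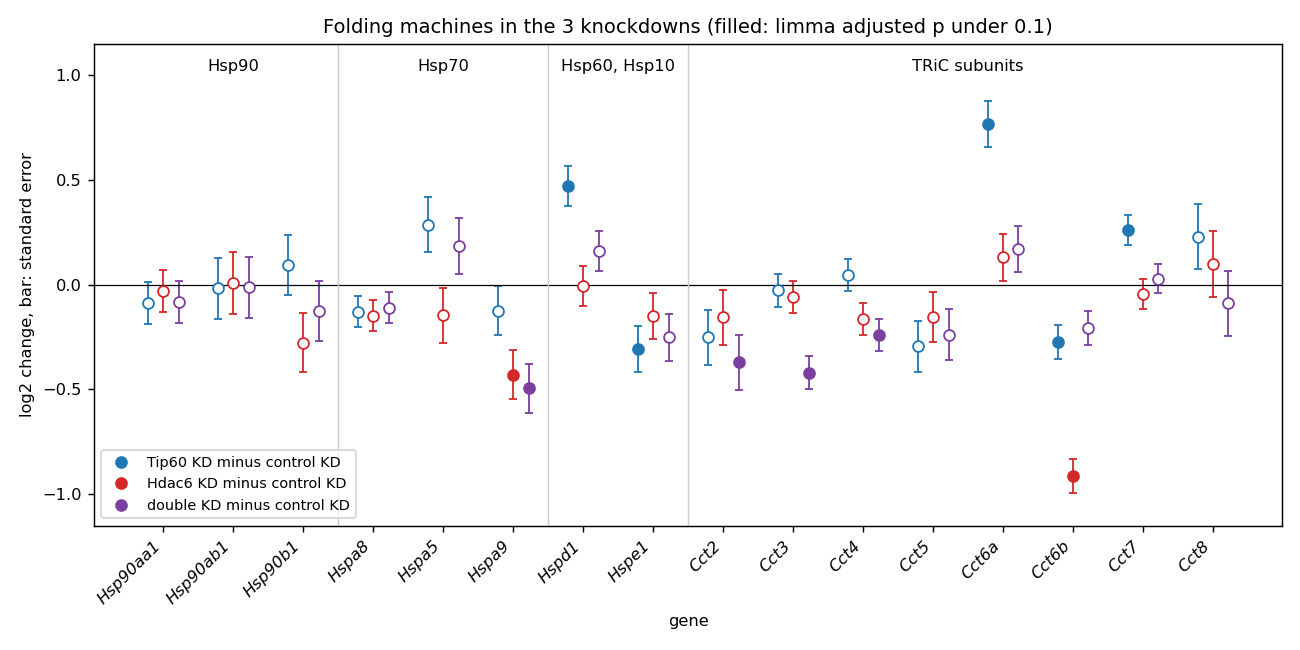
Log2 change against control KD, with its standard error, of the Hsp90 genes, Hspa8, Hspa5, Hspa9, the Hsp60 and Hsp10 genes and 8 TRiC subunit genes in the 3 knockdowns, filled where limma called it. Cct6a stands out upon Tip60 KD at 0.77 and Cct6b upon Hdac6 KD at -0.91, while changes of Hsp90aa1 and Hsp90ab1 lie between -0.09 and 0.01.

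Partners of TRiC outside the naming pattern were counted too. Of 15 genes of prefoldin, which hands unfolded actin and tubulin to TRiC, of the tubulin cofactors and of other TRiC partners, 9 changed in each knockdown (60.0%, against 40.4%, 30.0% and 33.7% of all genes), 4 up and 5 down upon Tip60 KD and 3 up and 6 down in the others. Tbcb, a tubulin cofactor, rose by 0.96 ± 0.07 upon Tip60 KD (limma adjusted p = 0.000877) and by 0.32 and 0.28 upon Hdac6 and double KD. Tbcc rose by 0.56, 0.59 and 0.48, and Tbce by 0.68 and 0.52 in the single knockdowns. Vbp1, a prefoldin subunit, fell by 0.59, 0.70 and 0.73, and Pdcl, a phosducin-like cofactor, by 0.64, 1.12 and 0.68.

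Of the 6 Bag genes, 4 changed upon Tip60 KD (66.7%, against 40.4% of all genes) and 2 upon Hdac6 KD (33.3%, against 30.0%). Upon double KD 3 of the 6 changed, against 33.7% of all genes. Whether so small a class differs from all genes was not tested. Bag1, an exchange factor that links Hsc70 to the proteasome, had a signal of 3.09 and 3.17 in control KD, 2.32 and 2.22 upon Tip60 KD, 3.07 and 3.06 upon Hdac6 KD, and 2.61 and 2.48 upon double KD. Hdac6 KD arrays lay just under control KD, and the arrays depleted of Tip60 far below. Bag1 fell by 0.86 ± 0.09 upon Tip60 KD (55.0% of control, limma adjusted p = 0.00156) and by 0.59 ± 0.09 upon double KD (limma adjusted p = 0.00673), both held without any 1 array, and its change upon Hdac6 KD was -0.06 ± 0.09. Its second probe fell by 1.04 upon Tip60 KD and 0.85 upon double KD. The Tip60 KD call of Bag1, like that of Dnajc9, held in all 17 alternative settings.

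Bag2, an inhibitor of Stub1, was like Hspb8 in being called in opposite directions. Its signal was -0.88 and -0.98 in control KD, -1.26 and -1.24 upon Tip60 KD, -0.43 and -0.58 upon Hdac6 KD, and -0.74 and -0.85 upon double KD. Bag2 fell by 0.32 ± 0.09 upon Tip60 KD (limma adjusted p = 0.0371) and rose by 0.42 ± 0.09 upon Hdac6 KD (limma adjusted p = 0.0225), calls that were lost without control KD array A or either Tip60 KD array (highest adjusted p 0.156) and without control KD array B or Hdac6 KD array A (0.108). The direct difference of -0.75 ± 0.09 (limma adjusted p = 0.00584) held without any 1 array.

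Bag4 rose by 0.48, 0.36 and 0.32 upon Tip60, Hdac6 and double KD (SE 0.11, limma adjusted p = 0.02, 0.0675 and 0.0851), and all but the Tip60 KD call were lost in 5 and 7 of the 8 fits without 1 array (highest adjusted p 0.238 and 0.286). Bag6, which guards tail-anchored membrane proteins, rose by 0.35 upon Tip60 KD and 0.39 upon double KD (limma adjusted p = 0.0341 and 0.0301), both lost on leaving out either control KD array or replicate A of that knockdown (highest adjusted p 0.135 and 0.114). Bag3, the stress-induced member, had changes of -0.24, 0.07 and -0.20, and Bag5 of -0.07, 0.25 and 0.14, none called without the block. The other kept probe of Bag5 had changes of -1.36, -1.10 and -1.13, not called either. These rest on control KD array B, at 0.18, whereas control KD array A was at -1.69 and the knockdown arrays between -2.15 and -1.80.

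In the direct contrast of the single knockdowns, Tip60 KD and Hdac6 KD differed in 23 of 77 members (29.9%), 15 higher upon Tip60 KD and 8 higher upon Hdac6 KD, against 24.1% of all genes. Higher upon Tip60 KD were Dnajc16 (difference 1.16 ± 0.10), Dnajb4 (0.75 ± 0.11), Cct6b (0.64 ± 0.08) and Cct6a (0.64 ± 0.11). Higher upon Hdac6 KD were Dnajc9 (-0.89 ± 0.11), Bag1 (-0.80 ± 0.09), Hspb8 (-0.75 ± 0.12) and Bag2 (-0.75 ± 0.09), with limma adjusted p between 0.003 and 0.0158 for all 8 genes. Hsph1 was also higher upon Hdac6 KD (-0.45 ± 0.07, limma adjusted p = 0.0123). These 9 calls held without any 1 array, whereas the count of 23 was 12 and 10 when Hdac6 KD replicates A and B were dropped in turn, and 14 and 15 for those of Tip60 KD. With the replicate block it was 40, against 41.5% of all genes.

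Whether Hdac6 KD had the same effect in cells also depleted of Tip60 was tested by the interaction, the change upon double KD minus the sum of the single changes. It was called for 12 of 77 members (15.6%), 8 positive and 4 negative, against 23.0% of all genes. Hsph1 had the largest value, -1.20 ± 0.10 (limma adjusted p = 0.00684). Hdac6 KD raised Hsph1 by 1.05 with Tip60 present, and the difference between double KD and Tip60 KD was -0.15. For Cct6b the interaction was 0.98 ± 0.11 (limma adjusted p = 0.00915), with -0.91 and 0.07 in the same order. For Hsf2 it was 0.93 ± 0.13 (limma adjusted p = 0.0122), with -0.49 and 0.45. For Hspb11 it was 0.76 ± 0.15 (limma adjusted p = 0.0266), with -0.77 and -0.02.

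These 4 interaction calls held without any 1 array. In limma, that of Cct6a (-0.73) was lost without control KD array B (adjusted p = 0.104), and those of Dnajc19 (0.81) and Dnaja3 (0.48) without Hdac6 KD array B (adjusted p = 0.103 and 0.108). Those of Bag4 (-0.52), Dnajc25 (-0.67), Dnajb4 (0.48), Dnajc12 (0.52) and Dnajc18 (0.47) were lost in 6 or 7 of the 8 fits. The count of 12 was 6 when control KD replicate B was left out, 7 for Hdac6 KD replicate A and 5 for Hdac6 KD replicate B, and it was 34 with the replicate block, against 47.0% of all genes. Hdac6 was itself 0.45 lower upon Tip60 KD, so that part of its depletion was present on both sides of the comparison between double KD and Tip60 KD.

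**Figure D4:**
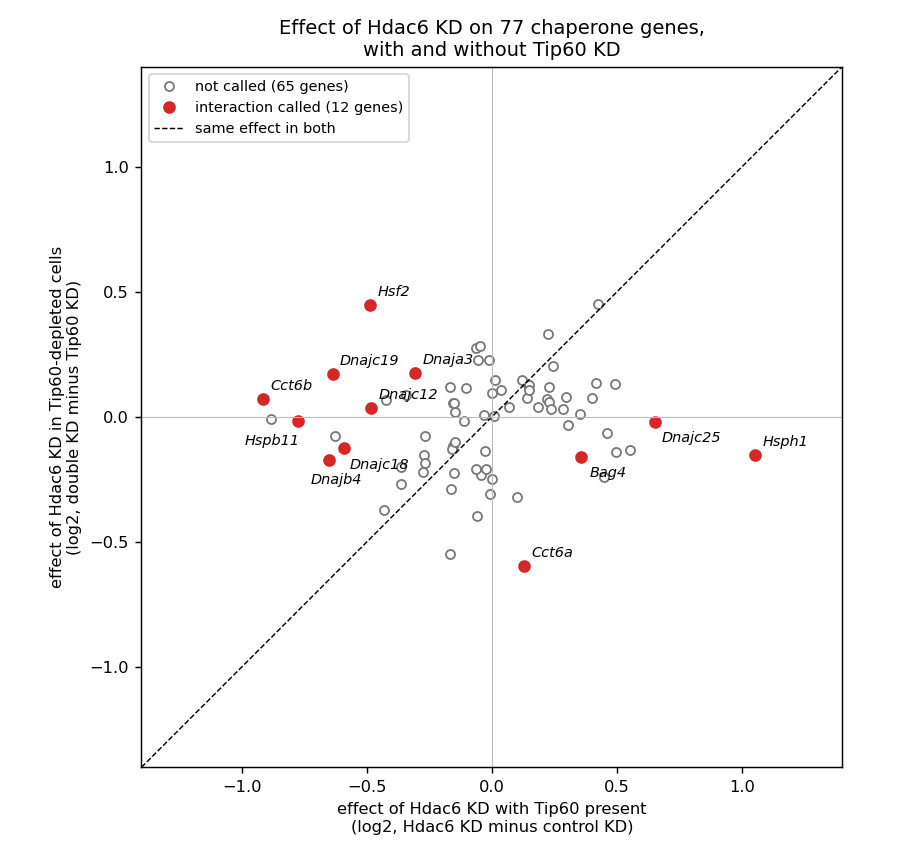
Effect of Hdac6 KD on each of the 77 members with Tip60 present (Hdac6 KD minus control KD, horizontal) and in Tip60-depleted cells (double KD minus Tip60 KD, vertical), both in log2 units, with the 12 genes called for the interaction filled and the dashed line marking equal effects. Hsph1 lies far right at 1.05 and Cct6b far left at -0.91, both near 0 on the vertical axis. The step of Hdac6 depletion was smaller on the vertical axis than on the horizontal.

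Between double KD and Tip60 KD, 5 of 77 members differed (6.49%), against 4.10% of all genes. Bag2 (0.45) and Hsf2 (0.45) were higher upon double KD, and Cct6a (-0.60), Dnajc2 (-0.55) and Cct3 (-0.39) lower, with limma adjusted p between 0.0712 and 0.087. None of these 5 calls held when any 1 of the 8 arrays was left out, where limma called 0 members while 7 to 13 had a p below 0.05 before adjustment. In those fits nearly all calls among all tested genes were lost too. With the replicate block the count of members was 21, against 26.6% of all genes.

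Lists of stress genes, set beside the members, were mixed in direction. Of 22 tested heat shock factor target genes, 13 of the list being members, 10 changed upon Tip60 KD (7 up, 3 down), 8 upon Hdac6 KD (6 up, 2 down) and 5 upon double KD (2 up, 3 down). These are 45.5%, 36.4% and 22.7% of the list, against 40.4%, 30.0% and 33.7% of all genes, with medians of 0.15, 0.08 and 0.02 against 0.05, 0.02 and 0.05 for all genes. Serpinh1, the collagen chaperone Hsp47, fell by 0.78 ± 0.09 upon Tip60 KD and by 0.37 upon double KD, and rose by 0.40 ± 0.09 upon Hdac6 KD. Chordc1, an Hsp90 cofactor, rose by 0.48 upon Tip60 KD. Of the 4 members with a heat shock element shown above, Hsph1 rose in all knockdowns, and Hspd1 rose and Hspe1 fell upon Tip60 KD. Dnajb6 rose upon double KD and fell upon Hdac6 KD, the latter by 1 of its 4 kept probes. Upon Tip60 KD the 4 probes of Dnajb6 all had positive changes, and 2 of them were called.

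Of 26 ER chaperone and unfolded protein response genes, 8 of them members, 14 changed upon Tip60 KD (9 up, 5 down), 10 upon Hdac6 KD (3 up, 7 down) and 13 upon double KD (8 up, 5 down). The shares were 53.8% and 38.5% upon Tip60 and Hdac6 KD, against 40.4% and 30.0% of all genes, and 13 of 26 upon double KD, against 33.7%. Pdia3, a disulphide isomerase, rose by 1.09, 0.67 and 1.03. Herpud1, a degradation factor, fell by 1.07, 1.25 and 0.68, the transcription factor Atf4 by 0.72, 1.04 and 0.50, and Edem1 by 0.57, 0.61 and 0.73. The 3 members with an ER stress element were not called upon Tip60 KD or double KD without the block, and with it Hspa5 was called in both and Hsp90b1 upon Hdac6 KD, as given above. Upon Hdac6 KD Dnajc3 rose by 0.23 (limma adjusted p = 0.0772), a call lost without any 1 control or Hdac6 KD array (highest adjusted p 0.293). Dnajb11, an ER partner of Hspa5, rose upon double KD by 0.34 (limma adjusted p = 0.0684, lost in 5 of the 8 fits, highest 0.239).

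Of 13 genes tied to Hdac6 in the stress response, Hdac6 and 3 members included, 6 changed upon Tip60 KD (46.2%), 5 upon Hdac6 KD (38.5%) and 4 upon double KD (30.8%), the targeted Hdac6 among them each time, against 40.4%, 30.0% and 33.7% of all genes. Tuba1a, an alpha tubulin, rose by 0.84, 0.57 and 0.99. The ubiquitin receptors Sqstm1 (0.58 and 0.58) and Ubqln2 (0.61 and 0.60) rose in the single knockdowns, with changes of 0.21 and 0.24 upon double KD that were not called. Plaa, a ubiquitin-binding partner of Vcp, fell by 0.51, 0.55 and 0.58.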

How the data were processed

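Total RNA from 8 cultures was labelled with Cy3 and hybridised to 1-colour Agilent arrays. As deposited, the scanner files hold fluorescence intensities that the authors extracted with Agilent Feature Extraction 10.7.1.1, per the submitters' processing notes, which subtracts background. The deposited value table holds log2 values whose processing by the authors is not given in the sources used here, and it served as an alternative. Processed intensities were divided by the 75th percentile of their array, raised to a common floor (log2 of -2.78) and log2 transformed. A probe was kept where 2 or more arrays measured it above both background and floor, and the brightest kept probe stood for its gene. Group means were fitted over all 8 arrays with limma 3.58.1 in R 4.3.3 (lmFit, eBayes), without a block, and called at a Benjamini-Hochberg adjusted p under 0.1. The scripts were tested on simulated data. Replicates are labelled as replicates A and B, and p-values measure the spread between these arrays only.

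The replicate letter coincided with the slide, and differences between A and B correlated between groups with r of 0.651 to 0.799 across genes, which are not independent replicates. A fit with the letter as a block was therefore an alternative, beside normexp with an offset of 50, quantile normalisation, median scaling, the value table, no filter, missing values for the floor, the mean of probes, only the arrays compared, and leaving out each array. Named genes were Kat5, Hdac6, all Hsf, Hsp90, Hsp60-Hsp10 and Cct genes, Hspa1a, Hspa5, Hspa8, Hspa9, Hspb1, Hsph1, Dnaja1, Dnajb1 and Bag3, the 8 called members with the largest rise and the 8 with the largest fall against control KD, the 4 largest each way in the other contrasts, and the 3 largest called genes of each list and knockdown. Other genes were named after their values were seen. Members, lists and this rule were chosen with earlier results of these data known.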

Additional observations from a re-analysis of the deposited data

Results flagged for a closer look

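The effect of Hdac6 KD in cells with and without Tip60 KD was compared by limma's test of the interaction (log2 change upon double KD minus the sum of the single changes). It differed for 12 of 77 members (15.6%), in a test that called 23.0% of all genes. Of the 12, 8 are listed here, while Dnaja3, Dnajb4, Dnajc12 and Dnajc18 are given above. The values were -1.20 for Hsph1, 0.98 for Cct6b, 0.93 for Hsf2, 0.81 for Dnajc19, 0.76 for Hspb11, -0.73 for Cct6a, -0.67 for Dnajc25 and -0.52 for Bag4. Those of Hsph1, Cct6b, Hsf2 and Hspb11 stayed past the threshold when any 1 array was left out. The interaction of Dnajc19 and of Dnajc25 rests on 1 of 2 kept probes of each gene. The step of Hdac6 depletion was smaller between double KD and Tip60 KD than between Hdac6 KD and control KD, and its part was not tested.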

How the results depend on the processing

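With 2 arrays a group, the counts of called members moved with the setting more than the changes did. The order below is Tip60 KD, Hdac6 KD and double KD against control KD, Tip60 KD against Hdac6 KD, double KD against Tip60 KD, and the interaction, with 27, 26, 27, 23, 5 and 12 members called. Leaving out 1 array gave 18 to 25, 8 to 24, 13 to 21, 10 to 23, 0 and 5 to 11. Among all tested genes, each fit without 1 array also called fewer. The replicate block gave 50, 48, 44, 40, 21 and 34 members, against 60.3%, 52.9%, 55.4%, 41.5%, 26.6% and 47.0% of all genes. Median scaling gave 2, 0, 1, 0, 0 and 0, with 11, 13, 12, 8, 2 and 4 members at a limma p below 0.05 before adjustment. Of all 18059 tested genes it called 1485, 169, 563, 39, 0 and 0. Upon Hdac6 KD, 17 members were called from the authors' value table and 16 with no filter on dim probes. With only the arrays compared in the fit, the counts were 15 upon double KD, 13 for Tip60 KD against Hdac6 KD and 0 for double KD against Tip60 KD. That last comparison had 0 calls with normexp and with the authors' table and 3 with quantile normalisation. Its limma p was below 0.05 before adjustment for 9 members with only its arrays, 12 with normexp and 15 with the authors' table. The causes were not tested. For the 84 named genes against control KD, 126 of 4278 values changed sign, 123 of them not called in either setting. The 3 with a call changed direction as follows: Cct4 upon double KD (0.017) and Hsp90aa1 upon Hdac6 KD (0.20) with quantile normalisation, and the ESC marker Tdgf1 upon double KD with the mean of its probes (-0.012). Of the same values, 3507 kept direction and side of the threshold, 560 lost the call and 85 gained it. Members dimmer than the floor of -2.78, set by control KD array B, could not be ordered.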
